A study of Mus musculus with 12 samples.

Results

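Ugt, Gst and Sult genes encode the 3 best-known families of phase II enzymes, and 51 of the 20422 genes measured in these livers belonged to them. They were taken by symbol from probe sets annotated to a single gene: 21 genes whose symbol began with Ugt and a digit, 19 of the Gsta, Gstk, Gstm, Gsto, Gstp, Gstt and Gstz classes, and 11 that began with Sult and a digit. Phase II enzymes join a polar group to drugs, dietary compounds, steroids, bilirubin and bile acids so that these can leave the liver in bile or urine. UDP-glucuronosyltransferases (Ugt) sit in the endoplasmic reticulum and add a sugar, usually glucuronic acid. Glutathione S-transferases (Gst) add glutathione to reactive electrophiles, many of them products of lipid peroxidation, and cytosolic sulfotransferases (Sult) add sulfate to hormones, amines and phenols.

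The study asked how aspartame (ASP, a sweetener) and monosodium glutamate (MSG, a flavour enhancer), alone and together, altered hepatic gene expression in mice that ate trans fat (TFA). Livers came from male C57Bl/6J mice aged 20 weeks in 4 diet groups: ASP + MSG + TFA, ASP + TFA, MSG + TFA, and TFA alone. All 4 groups, TFA included, ate the same diet with 20% w/w shortening that supplied 8.68% w/w trans fatty acids, so that no group here shows the effect of the fat itself. Aspartame was given at 0.25 g/L and MSG at 0.75 g/L in the drinking water, to the dams from 3 weeks before mating and to the offspring after weaning at 4 weeks, and livers were taken after an overnight fast. RNA of 5 mice was pooled for each Affymetrix Mouse Gene 1.0 ST array, with 3 pools for the 15 mice of a diet and 12 arrays in all.

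Values are log2 intensities, averaged over the probe sets of a gene, and a log2 fold change of 0.49 or more is about a 1.4-fold difference. Array medians lay between 6.91 and 6.96. The 51 genes were read by 290 probe sets, with a median of 6 and a maximum of 12 per gene, while 7 genes were read by 1 probe set and 4 by 2. On average over all arrays 12 of the 51 were below the lowest array median. Hepatocyte markers averaged 13.0 to 13.2 in all 12 pools. Pancreatic acinar markers (14 measured) averaged 6.19 to 8.25 in ASP + MSG + TFA pools, 6.06 to 8.88 in ASP + TFA pools, 6.15 to 6.75 in MSG + TFA pools and 6.12 to 7.43 in TFA pools. Skeletal muscle markers (15 measured, among them Ttn) averaged 6.61 to 7.13 in TFA pools. In the pools of the 3 additive diets, in the same order, they averaged 6.02 to 6.50, 5.85 to 6.11 and 5.86 to 6.40. At an unadjusted p under 0.05 13, 13 and 14 of the 15 were lower with ASP + MSG, ASP and MSG. Their medians were -0.703, -1.004 and -0.816. At an adjusted p under 0.05 8 were lower with ASP, against 0 with ASP + MSG and 0 with MSG. The TFA pools were thus higher in muscle transcripts in all 3 comparisons. The 30 differences chosen by rule were refitted with the mean of either marker list, and without the 3 arrays richest in acinar transcripts. These arrays were ASP + TFA pool 3 (8.88) and ASP + MSG + TFA pools 1 and 2 (7.96 and 8.25). Without them ASP + MSG + TFA is pool 3 alone, so that such a refit sets 1 pool against TFA. A refit is given beside a value where it moved it by over 1.5 times. Other differences were not refitted, among them those of Gstt3, Gstp2, Ugt2a2, Sult5a1 and the probe sets shared between genes. In whole tissue, fewer cells of a type and less RNA per cell cannot be told apart.

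No Ugt, Gst or Sult gene passed an adjusted p under 0.05 in any comparison, with limma fitted over all 20422 genes and p-values adjusted by the Benjamini-Hochberg method. In the F test over the 4 diets 0 of 51 passed, against 0.113% of all genes, and 12 of 51 had an unadjusted p under 0.05, against 9.16% of all genes. The 12 were Ugt1a5, Ugt1a10, Ugt2b35, Ugt2b37, Ugt2b38, Gstm1, Gstm6, Gstp1, Sult1b1, Sult1c1, Sult3a1 and Sult6b1. Against TFA, 0 of 51 passed with ASP + MSG (0.0392% of all genes), 0 with ASP (0.284%) and 0 with MSG (0.0196%). The counts at an unadjusted p under 0.05 were 11 with ASP + MSG (10.1% of all genes), 10 with ASP (10.1%) and 5 with MSG (5.81%). The 3 comparisons share the TFA pools. The spread of these genes between pools of 1 diet was a median SD of 0.117, against 0.129 for all genes. P-values measure the spread between pools, and 3 arrays per diet limit their precision.

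The median log2 fold changes of the families against TFA were small and did not share a sign. With ASP + MSG, ASP and MSG they were -0.074, -0.049 and 0.022 for Ugt genes, and 0.105, 0.010 and 0.041 for Gst genes. For Sult genes they were 0.103, 0.101 and -0.002. Without regard to sign, the medians of the 51 genes were 0.134, 0.099 and 0.082, against 0.092, 0.088 and 0.075 for all genes. The median log2 fold change of the 51 genes was 0.046 with ASP + MSG, -0.023 with ASP and 0.030 with MSG, against 0.007, 0.022 and 0.004 for all genes. Of the 21 Ugt genes 8 were above 0 with ASP + MSG, 6 with ASP and 11 with MSG. Of the 19 Gst genes 15, 12 and 16 were above 0 in the same comparisons, and of the 11 Sult genes 7, 6 and 5. Over all 20422 genes 10663, 11707 and 10481 were above 0. Gst genes were thus above 0 more often than all genes, and Ugt genes less often with ASP + MSG and with ASP. Whether these counts differ from those of all genes was not tested. A difference of 1.4-fold or more was reached by Ugt1a10, Ugt2b37 and Ugt2b38 with ASP + MSG (1.25% of all genes), by 0 genes with ASP (1.4%), and by Ugt1a5 with MSG (0.735%).

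**Figure D1:**
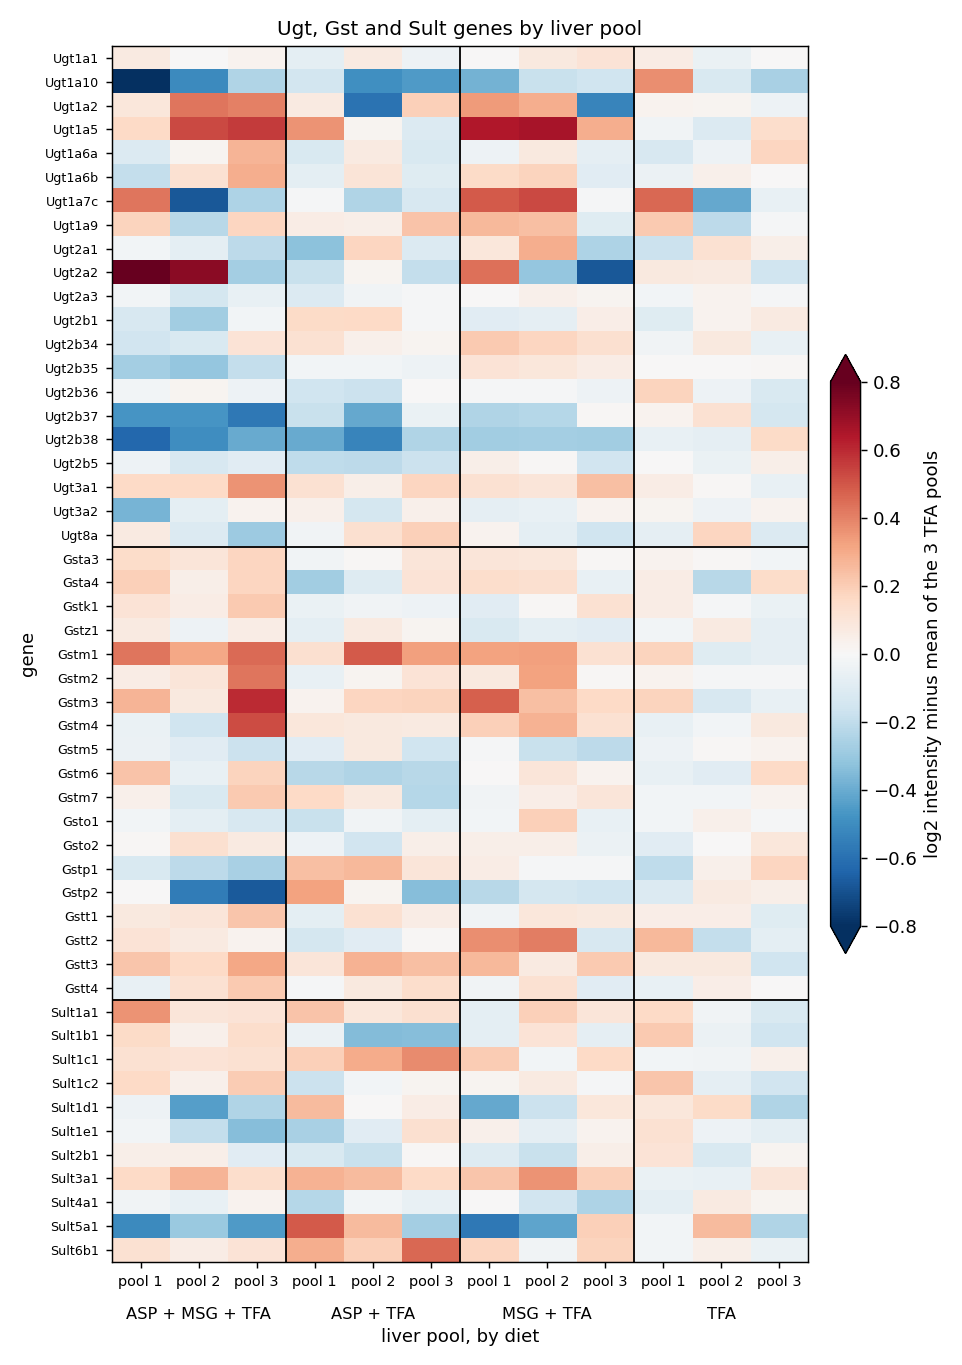
Each row is 1 of the 51 genes and each column 1 of the 12 liver pools, grouped by diet, and colour gives the log2 intensity minus the mean of the 3 TFA pools (colours end at -0.8 and 0.8). Ugt2b37 and Ugt2b38 are blue in all 3 ASP + MSG + TFA pools and Gstm1 is red there, while most rows stay pale.

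Ugt2b38, of the subfamily that glucuronidates steroids, bile acids and drugs, had the smallest p of the 51 genes in the F test of limma (adjusted p = 0.171). Its log2 intensity was 11.30, 11.43 and 11.53 in ASP + MSG + TFA pools, 11.53, 11.40 and 11.69 in ASP + TFA pools, 11.65, 11.66 and 11.65 in MSG + TFA pools, and 11.87, 11.86 and 12.08 in TFA pools. All 9 additive pools lay below all 3 TFA pools. The log2 fold change against TFA was -0.51 ± 0.0963 (SE) with ASP + MSG (adjusted p = 0.104), -0.39 ± 0.0963 with ASP (adjusted p = 0.141) and -0.28 ± 0.0963 with MSG (adjusted p = 0.689). All 4 of its probe sets were below TFA in each of the 3 comparisons, between -0.62 and -0.34 with ASP + MSG. In a fit that also held the mean of the muscle markers the value with ASP + MSG was -0.48. Without the 3 arrays richest in acinar transcripts, which leaves ASP + MSG + TFA pool 3 alone, it was -0.41.

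Ugt2b37, from the same subfamily, had 10.28, 10.28 and 10.18 in ASP + MSG + TFA pools, 10.57, 10.34 and 10.70 in ASP + TFA pools, 10.51, 10.52 and 10.76 in MSG + TFA pools, and 10.78, 10.87 and 10.61 in TFA pools. The ASP + MSG + TFA pools were below the pools of all other diets, which overlapped each other. With ASP + MSG the difference was -0.51 ± 0.107 against TFA (adjusted p = 0.156) and -0.35 ± 0.107 against MSG + TFA (adjusted p = 0.704). Its 4 probe sets ranged from -1.18 to -0.03 with ASP + MSG, and the probe set of highest intensity was the one at -0.03, which against MSG + TFA had -0.15.

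Ugt2b35 differed least between pools of 1 diet (SD 0.0338, the lowest of the 51 genes). It had 11.73, 11.69 and 11.81 in ASP + MSG + TFA pools, 11.98, 11.98 and 11.96 in ASP + TFA pools, 12.11, 12.09 and 12.06 in MSG + TFA pools, and 12.00, 12.00 and 12.01 in TFA pools. The ASP + MSG + TFA pools were below all 9 others, the ASP + TFA pools narrowly below TFA, and the MSG + TFA pools above TFA. With ASP + MSG the log2 fold change was -0.26 ± 0.0704 against TFA (adjusted p = 0.262), -0.23 ± 0.0704 against ASP + TFA (adjusted p = 0.405) and -0.34 ± 0.0704 against MSG + TFA (adjusted p = 0.486). The interaction of ASP and MSG, the ASP + MSG difference beyond the sum of the ASP and MSG differences, was -0.32 ± 0.0995 (adjusted p = 0.420). Of its 7 probe sets 6 were below TFA with ASP + MSG and 1 was above, at 0.21. The median intensity of its probe sets on each array, in place of their mean, gave 0.14 with ASP + MSG against TFA, and -0.70 for the interaction. The sign of the first is opposite, but this median is of intensities, not of fold changes. By average intensity (13.12) the probe set at 0.21 is the middle 1 of the 7.

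Ugt2b5 stood lowest with ASP alone. It had 13.17, 13.08 and 13.12 in ASP + MSG + TFA pools, 13.01, 13.00 and 13.04 in ASP + TFA pools, 13.26, 13.22 and 13.06 in MSG + TFA pools, and 13.21, 13.16 and 13.26 in TFA pools. The ASP + TFA pools were below the pools of the other diets, and the log2 fold change against TFA was -0.20 ± 0.0780 with ASP (adjusted p = 0.397) and -0.09 ± 0.0780 with ASP + MSG (adjusted p = 0.719). Its 3 probe sets ranged from -0.43 to -0.01 with ASP, and the probe set of highest intensity was the one at -0.01.

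These genes are neighbours. In the RefSeq gene order Ugt2b34, Ugt2b1, Ugt2b35, Ugt2b36, Ugt2b5, Ugt2b37, Ugt2a3, Ugt2b38, Ugt2a1 and Ugt2a2 follow each other on chromosome 5, with Sult1b1, Sult1d1 and Sult1e1 next to them. With ASP + MSG 9 of the 10 Ugt2 genes had a log2 fold change below 0 (median -0.097), where 9759 of the 20422 genes did. With ASP 8 of the 10 did (median -0.104) and with MSG 6 (median -0.029). The exception with ASP + MSG was Ugt2a2, at 0.46 ± 0.280 (adjusted p = 0.602), which is read by 1 probe set and had 7.20, 6.98 and 5.99 in ASP + MSG + TFA pools, against 6.34, 6.33 and 6.10 in TFA pools. Ugt2b34 and Ugt2b1 had -0.05 and -0.14 with ASP + MSG. Near-identical members of this cluster can share hybridisation, so that the values of neighbours may not be independent.

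**Figure D2:**
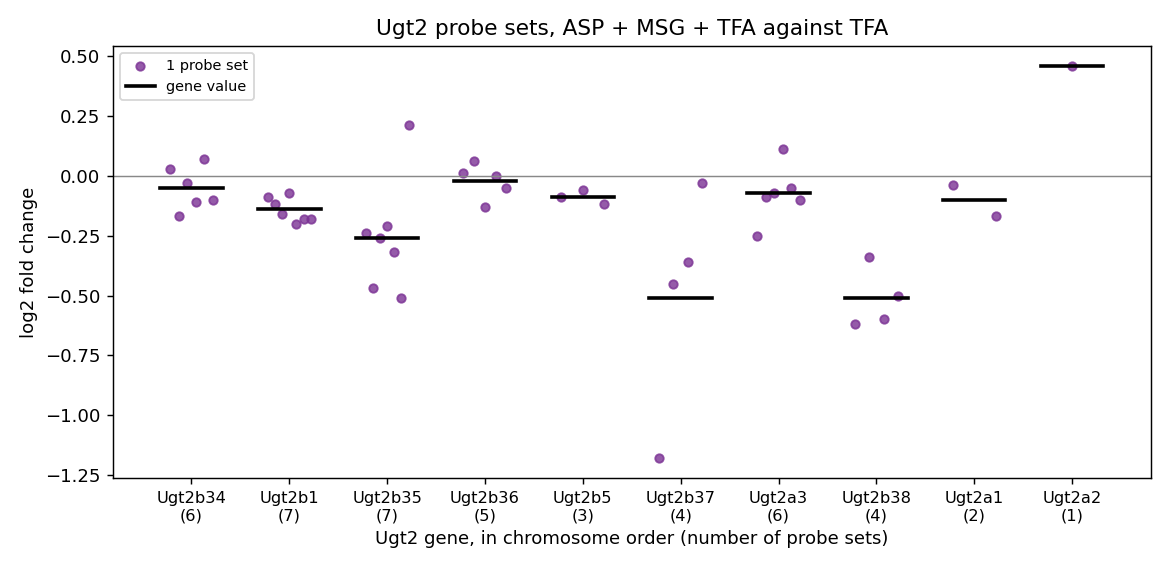
Log2 fold change of ASP + MSG + TFA against TFA (vertical axis) for each probe set of the 10 Ugt2 genes (points), with the gene value as a bar and genes in chromosome order. All 4 probe sets of Ugt2b37 and of Ugt2b38 lie below 0, from -1.18 to -0.03 and from -0.62 to -0.34, and the single probe set of Ugt2a2 lies at 0.46.

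The promoters of 3 of these genes are shown because they are close copies of each other while the values of the genes with ASP + MSG were not alike (-0.51, -0.51 and -0.09). Each is 300 bases of RefSeq sequence (GRCm38.p6, minus strand), from 250 bases before to 50 bases after the start of the transcript, 5′ to 3′. Ugt2b38 is at chr5:87424154-87424453, Ugt2b37 at chr5:87254739-87255038 and Ugt2b5 at chr5:87140291-87140590, and capitals mark the bases of Ugt2b37 and Ugt2b5 that differ from Ugt2b38 or have no partner in it.
Ugt2b38: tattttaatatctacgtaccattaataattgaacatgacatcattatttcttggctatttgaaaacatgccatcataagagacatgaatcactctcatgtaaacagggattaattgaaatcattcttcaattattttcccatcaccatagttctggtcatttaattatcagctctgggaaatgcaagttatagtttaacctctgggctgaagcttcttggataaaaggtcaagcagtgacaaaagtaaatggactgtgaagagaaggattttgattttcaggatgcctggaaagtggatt
Ugt2b37: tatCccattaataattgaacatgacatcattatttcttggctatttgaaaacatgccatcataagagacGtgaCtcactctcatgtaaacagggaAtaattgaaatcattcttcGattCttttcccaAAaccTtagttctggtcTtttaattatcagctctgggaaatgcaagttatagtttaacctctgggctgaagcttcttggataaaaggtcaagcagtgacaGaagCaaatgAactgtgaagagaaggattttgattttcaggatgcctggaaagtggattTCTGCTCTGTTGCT
Ugt2b5: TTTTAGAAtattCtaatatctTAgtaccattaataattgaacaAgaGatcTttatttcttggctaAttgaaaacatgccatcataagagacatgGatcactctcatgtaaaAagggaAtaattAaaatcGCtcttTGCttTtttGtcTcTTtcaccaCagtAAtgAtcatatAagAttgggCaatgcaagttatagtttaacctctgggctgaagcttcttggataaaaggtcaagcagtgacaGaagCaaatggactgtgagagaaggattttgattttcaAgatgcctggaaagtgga
In a pairwise alignment with free ends Ugt2b37 and Ugt2b38 were identical at 273 of 288 columns (94.8%), Ugt2b5 and Ugt2b38 at 261 of 300, and Ugt2b5 and Ugt2b37 at 246 of 287 (85.7%). Over the 46 of 51 genes with a promoter in the RefSeq table, 3 motifs were searched on both strands, and none of the 3 contains another. GTTAAT, the half-site of the hepatocyte factor HNF1, was in 9 genes (19.6%), against 8.24% of 27025 genes with a promoter, and in none of the Ugt2b promoters. The antioxidant response element core TGACNNNGC was in Gsta3, Gstm5 and Gstm7 (6.52%, against 14% of all genes). The aryl hydrocarbon receptor core GCGTG was in 8 genes (17.4%, against 35.2%), among them Ugt1a5 and Gstm1.

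Genes of the Ugt1a locus differ in their first exon and share the exons that follow, so that only the first exon tells them apart. Ugt1a5 had the largest difference with MSG of the 51 genes. It had 10.49, 10.86 and 10.89 in ASP + MSG + TFA pools, 10.69, 10.35 and 10.22 in ASP + TFA pools, 10.97, 10.99 and 10.62 in MSG + TFA pools, and 10.30, 10.22 and 10.47 in TFA pools. The pools of both diets with MSG were above all TFA pools, and the ASP + TFA pools overlapped TFA. The log2 fold change against TFA was 0.41 ± 0.144 with ASP + MSG (adjusted p = 0.353), 0.09 ± 0.144 with ASP (adjusted p = 0.901) and 0.53 ± 0.144 with MSG (adjusted p = 0.485). Its 2 probe sets had 0.84 and 0.21 with MSG. The promoter, at chr1:88165762-88166061 (GRCm38.p6, plus strand), holds 1 GCGTG, in capitals, 49 bases before the start.
Ugt1a5: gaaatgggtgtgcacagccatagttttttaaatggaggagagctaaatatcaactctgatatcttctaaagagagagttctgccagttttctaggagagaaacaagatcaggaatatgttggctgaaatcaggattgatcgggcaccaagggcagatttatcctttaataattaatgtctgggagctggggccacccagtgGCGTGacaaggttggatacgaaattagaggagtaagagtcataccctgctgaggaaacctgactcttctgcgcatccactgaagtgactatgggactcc
This string is in 35.2% of all genes with a promoter, and its presence says nothing of a factor bound there.

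Ugt1a10, which is read by 1 probe set and averaged below the array medians, was lower on average with each additive diet. It had 5.94, 6.25 and 6.52 in ASP + MSG + TFA pools, 6.61, 6.27 and 6.31 in ASP + TFA pools, 6.38, 6.58 and 6.60 in MSG + TFA pools, and 7.13, 6.64 and 6.50 in TFA pools. ASP + MSG + TFA pool 3 overlapped the TFA pools. With ASP + MSG the log2 fold change was -0.52 ± 0.167 (adjusted p = 0.322). It was -0.34 without TFA pool 1 and -0.90 with the muscle marker mean in the fit. Without the 3 arrays richest in acinar transcripts, which leaves ASP + MSG + TFA pool 3 alone, it was -0.24. Ugt1a1, the bilirubin-conjugating enzyme, stayed between 13.67 and 13.86 in all 12 pools. The exons that the Ugt1a genes share are read by 5 further probe sets outside the 51 genes, which averaged 13.52 ± 0.0478 (SD, n = 3) in ASP + MSG + TFA pools, 13.49 ± 0.0726 in ASP + TFA pools, 13.54 ± 0.0105 in MSG + TFA pools and 13.39 ± 0.0585 in TFA pools. A further probe set, common to 7 of the 8 genes, had 8.99, 9.11 and 8.86 in ASP + MSG + TFA pools, 9.20, 8.84 and 8.74 in ASP + TFA pools, 9.25, 9.08 and 8.66 in MSG + TFA pools, and 8.55, 8.43 and 8.61 in TFA pools. All 9 additive pools were above TFA there, at 0.46 ± 0.146 with ASP + MSG, 0.40 ± 0.146 with ASP and 0.46 ± 0.146 with MSG (limma, unadjusted p = 0.00747, 0.0165 and 0.00673).

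**Figure D3:**
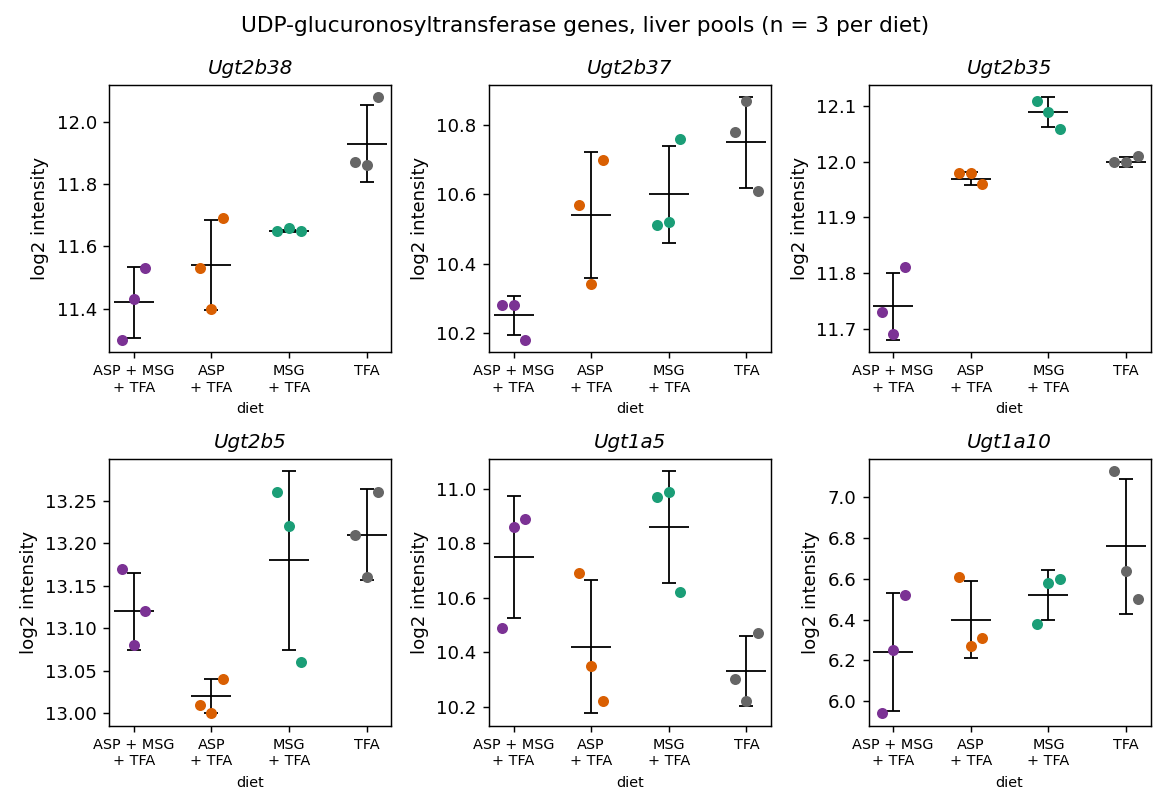
Log2 intensity (vertical axis) of 6 Ugt genes in the 3 liver pools of each diet (points), with the mean (wide line) and SD (error bars). The 3 ASP + MSG + TFA pools lie below every other pool for Ugt2b37 and Ugt2b35, all 9 additive pools lie below TFA for Ugt2b38, and the vertical axes differ between genes.

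Outside these clusters Ugt3a1, whose human counterpart uses N-acetylglucosamine as its sugar, had 12.05, 12.05 and 12.25 in ASP + MSG + TFA pools, against 11.95, 11.90 and 11.83 in TFA pools. The groups did not overlap, at a log2 fold change of 0.22 ± 0.0833 (adjusted p = 0.397). That value was 0.14 with the muscle marker mean in the fit. It was 0.36 without the 3 arrays richest in acinar transcripts, which leaves ASP + MSG + TFA pool 3 alone. Ugt8a, which makes the galactosylceramide of myelin, had a log2 fold change of -0.11, 0.10 and -0.07 with ASP + MSG, ASP and MSG.

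Among glutathione S-transferases, Gstp1, Gstm6 and Gstm1 had an unadjusted F-test p under 0.05. Gstm1, a main mu-class enzyme of mouse liver, had 12.05, 11.93 and 12.07 in ASP + MSG + TFA pools, 11.75, 12.11 and 11.95 in ASP + TFA pools, 11.94, 11.95 and 11.74 in MSG + TFA pools, and 11.80, 11.52 and 11.55 in TFA pools. Only the ASP + MSG + TFA pools were all above all TFA pools. Differences from TFA were 0.39 ± 0.108 with ASP + MSG (adjusted p = 0.269), 0.31 ± 0.108 with ASP (adjusted p = 0.327) and 0.26 ± 0.108 with MSG (adjusted p = 0.811). All 5 probe sets were above TFA with ASP + MSG, between 0.15 and 0.49. With ASP the probe set of highest intensity alone gave -0.04. With the muscle marker mean in the fit the 3 values were 0.30, 0.19 and 0.14.

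Gstm3 had 10.49, 10.30 and 10.82 in ASP + MSG + TFA pools and 10.70, 10.46 and 10.38 in MSG + TFA pools, against 10.40, 10.09 and 10.16 in TFA pools. Both groups overlapped TFA, at log2 fold changes of 0.32 ± 0.129 with ASP + MSG (adjusted p = 0.427) and 0.30 ± 0.129 with MSG (adjusted p = 0.825). With ASP + MSG it was 0.18 without ASP + MSG + TFA pool 3. With the muscle marker mean in the fit it was 0.19, and 0.14 with MSG. Without the 3 arrays richest in acinar transcripts, which leaves ASP + MSG + TFA pool 3 alone, it was 0.60 with ASP + MSG. Gstm6 was set apart by ASP alone. It had 10.11, 9.82 and 10.06 in ASP + MSG + TFA pools, 9.66, 9.64 and 9.66 in ASP + TFA pools, 9.88, 9.98 and 9.91 in MSG + TFA pools, and 9.82, 9.79 and 10.04 in TFA pools. The ASP + TFA pools were below the pools of all other diets, and all 7 probe sets were below TFA with ASP. ASP + TFA differed from TFA by -0.23 ± 0.0939 (adjusted p = 0.406), and ASP + MSG + TFA was above ASP + TFA by 0.35 ± 0.0939 (adjusted p = 0.321). With the muscle marker mean in the fit the difference of ASP + TFA from TFA was -0.43, and with the probe set of highest intensity alone it was -0.07. Of the 7 Gstm genes 6 were above 0 with ASP + MSG, the exception being Gstm5 at -0.10.

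Gstp1, the pi-class enzyme that is higher in male than in female mouse liver, had opposite signs with ASP and with ASP + MSG. It had 13.84, 13.75 and 13.70 in ASP + MSG + TFA pools, 14.20, 14.22 and 14.06 in ASP + TFA pools, 14.02, 13.95 and 13.95 in MSG + TFA pools, and 13.76, 14.00 and 14.13 in TFA pools. The ASP + MSG + TFA pools were below all ASP + TFA pools and all MSG + TFA pools, but TFA pool 1 lay among them. For ASP + MSG + TFA the log2 fold change was -0.20 ± 0.0964 against TFA (adjusted p = 0.508), -0.40 ± 0.0964 against ASP + TFA (adjusted p = 0.276) and -0.21 ± 0.0964 against MSG + TFA (adjusted p = 0.811), and the interaction was -0.40 ± 0.136 (adjusted p = 0.481). Gstp2, a near-identical copy next to Gstp1, had -0.41 with ASP + MSG against TFA, all 4 of its probe sets below 0, of which 2 held the same values on every array. The 6 probe sets that read both copies averaged 12.49 ± 0.138 (SD, n = 3) in ASP + MSG + TFA pools, 12.83 ± 0.188 in ASP + TFA pools, 12.70 ± 0.0623 in MSG + TFA pools and 12.74 ± 0.161 in TFA pools.

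Gstt3, of the theta class, had 8.57, 8.51 and 8.66 in ASP + MSG + TFA pools and 8.45, 8.63 and 8.59 in ASP + TFA pools, against 8.43, 8.43 and 8.19 in TFA pools. Neither group overlapped TFA, at 0.23 ± 0.0939 with ASP + MSG (adjusted p = 0.430) and 0.21 ± 0.0939 with ASP (adjusted p = 0.476). Gsta4, which clears the lipid peroxidation product 4-hydroxynonenal, had 0.14, -0.09 and 0.07 with ASP + MSG, ASP and MSG. Gstk1, of mitochondria and peroxisomes, had 0.12, -0.04 and 0.01, and Gsto1, of the omega class, had -0.08, -0.10 and 0.03. Gsta1 and Gsta2 are read here only by probe sets that match several genes, which are outside the 51. The 25 probe sets of Gsta1, Gsta2 and Gm10639 together had 11.24, 10.95 and 11.11 in ASP + MSG + TFA pools, 9.77, 10.32 and 10.74 in ASP + TFA pools, 11.20, 11.22 and 10.40 in MSG + TFA pools, and 10.49, 10.19 and 10.75 in TFA pools. The ASP + MSG + TFA pools were above all TFA pools, by 0.62 ± 0.241 (limma, unadjusted p = 0.0221).

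**Figure D4:**
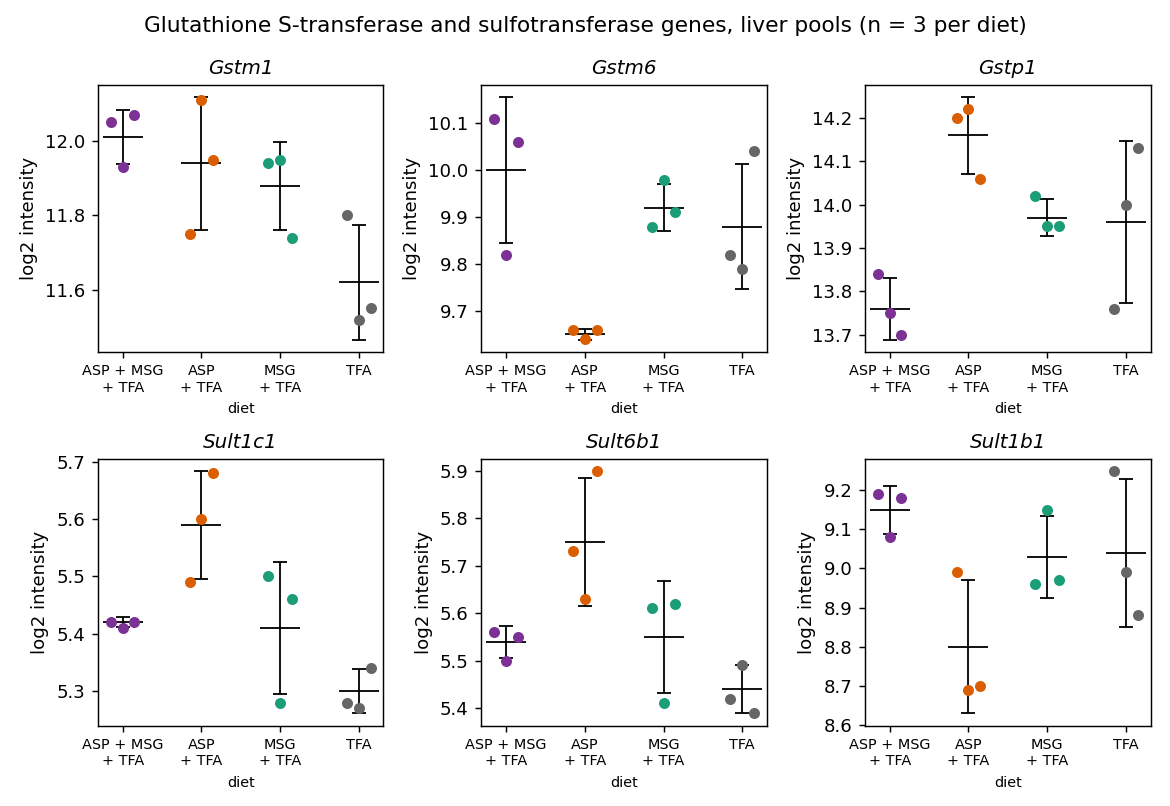
Log2 intensity (vertical axis) of 3 Gst and 3 Sult genes in the 3 liver pools of each diet (points), with the mean (wide line) and SD (error bars). The ASP + TFA pools lie apart from the pools of all other diets for Gstm6 (9.64 to 9.66) and, narrowly, for Sult6b1 (5.63 to 5.90), and the vertical axes differ between genes.

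Among sulfotransferases, the smallest p with ASP were those of Sult6b1 and Sult1c1, both below the array medians in every pool. Sult6b1 had 5.56, 5.50 and 5.55 in ASP + MSG + TFA pools, 5.73, 5.63 and 5.90 in ASP + TFA pools, 5.61, 5.41 and 5.62 in MSG + TFA pools, and 5.42, 5.49 and 5.39 in TFA pools. The ASP + TFA pools were above all others, at a log2 fold change against TFA of 0.32 ± 0.0894 (adjusted p = 0.214). Of its 7 probe sets 1 was at 1.14 with ASP and the others lay between -0.14 and 0.34. With ASP + MSG it was 0.10 ± 0.0894 (adjusted p = 0.720). Sult1c1 had 5.42, 5.41 and 5.42 in ASP + MSG + TFA pools, 5.49, 5.60 and 5.68 in ASP + TFA pools, 5.50, 5.28 and 5.46 in MSG + TFA pools, and 5.28, 5.27 and 5.34 in TFA pools. The ASP + TFA pools were again above all TFA pools, by 0.29 ± 0.0824 (adjusted p = 0.227). Its 9 probe sets were spread from -0.08 to 0.98 with ASP, 3 of them below 0, and the probe set of highest intensity was the one at 0.98.

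Sult3a1, which is female-predominant in mouse liver, had 5.27, 5.38 and 5.25 in ASP + MSG + TFA pools, 5.39, 5.36 and 5.27 in ASP + TFA pools, 5.33, 5.47 and 5.30 in MSG + TFA pools, and 5.06, 5.05 and 5.21 in TFA pools. Every one of these values was far below the lowest array median (6.91), so that the differences are between low intensities. All 9 additive pools were above all TFA pools, with log2 fold changes of 0.19 ± 0.0832 with ASP + MSG (adjusted p = 0.469), 0.23 ± 0.0832 with ASP (adjusted p = 0.351) and 0.26 ± 0.0832 with MSG (adjusted p = 0.643). The median over its 7 probe sets gave 0.07 with ASP, and the probe set of highest intensity gave 0.42 with ASP and 0.48 with MSG. Sult1b1, which sulfates thyroid hormone, had 9.19, 9.08 and 9.18 in ASP + MSG + TFA pools and 8.99, 8.69 and 8.70 in ASP + TFA pools, against 8.96, 9.15 and 8.97 in MSG + TFA pools and 9.25, 8.99 and 8.88 in TFA pools. The ASP + MSG + TFA pools were above all ASP + TFA pools, by 0.36 ± 0.110 (adjusted p = 0.405), and overlapped TFA. Its difference of ASP + TFA from TFA was -0.24 (adjusted p = 0.478), -0.58 with the muscle marker mean in the fit, -0.14 without TFA pool 1 and 0.05 with the probe set of highest intensity. Sult5a1 had 6.71, 6.92 and 6.77 in ASP + MSG + TFA pools, 7.71, 7.47 and 6.95 in ASP + TFA pools, 6.65, 6.80 and 7.41 in MSG + TFA pools, and 7.20, 7.47 and 6.98 in TFA pools. The ASP + MSG + TFA pools were below all ASP + TFA and all TFA pools but overlapped the MSG + TFA pools. The log2 fold change against TFA was -0.42 ± 0.205 with ASP + MSG (adjusted p = 0.523) and -0.26 ± 0.205 with MSG (adjusted p = 0.950). The brain enzyme Sult4a1 had -0.02, -0.11 and -0.13 with ASP + MSG, ASP and MSG (0.05 with MSG once the muscle marker mean was in the fit), and Sult2b1, which sulfates cholesterol, had 0.00, -0.10 and -0.08.

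Beside TFA, the ASP + MSG + TFA pools were set against each single additive. Against ASP + TFA 0 of the 51 genes passed (0.0245% of all genes), and 11 had an unadjusted p under 0.05 (8.41%), of which Gstm6, Sult1b1 and Ugt1a5 were higher (3.35%) and 8 lower (5.06%). The groups did not overlap for 6 genes above ASP + TFA (4.31%) and 8 below (6.63%). Against MSG + TFA 0 passed (0.00490%) and 6 had an unadjusted p under 0.05 (6.14%), of which Ugt2a2 was higher (3.65%) and Gstp1, Ugt2b34, Ugt2b35, Ugt2b37 and Ugt2b38 were lower (2.49%). Here the groups did not overlap for Gsta3 and Gstz1 above MSG + TFA (7.28%) and for 6 genes below (6.01%), namely the 5 just named and Ugt2a3. The interaction passed for 0 genes (0.0686%) and had an unadjusted p under 0.05 for 8 (7.39%), with Gstm6 and Sult1b1 positive (3.27%) and Gstp1, Sult1c1, Sult3a1, Sult6b1, Ugt2b34 and Ugt2b35 negative (4.12%).

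Against TFA, at an unadjusted p under 0.05, 6 genes were higher with ASP + MSG (5.68% of all genes) and 5 lower (4.38%), 5 higher with ASP (6.66%) and 5 lower (3.47%), and 4 higher with MSG (2.77%) and 1 lower (3.05%). Groups that did not overlap were counted as well. With ASP + MSG 11 of 51 genes were above TFA in every pool (10.0% of all genes) and 6 below (7.90%). With ASP the counts were 4 above (8.48%) and 5 below (4.92%), and with MSG 6 above (6.45%) and 3 below (6.75%). The 11 genes above TFA with ASP + MSG were Gsta3, Gstm1, Gstm2, Gstt1, Gstt3, Sult1c1, Sult3a1, Sult6b1, Ugt1a2, Ugt1a5 and Ugt3a1. The 6 below were Gstm5, Gsto1, Sult5a1, Ugt2b35, Ugt2b37 and Ugt2b38. Of the 290 single probe sets 0 had an adjusted p under 0.05 with a 1.4-fold difference, where 0.00141% of all probe sets did with ASP + MSG, 0.00943% with ASP and 0% with MSG. At an unadjusted p under 0.05 with the same difference 18 did with ASP + MSG (6.54% of all probe sets), 15 with ASP (8.31%) and 9 with MSG (5.38%). Of the 40 genes with 3 or more probe sets, all probe sets shared 1 sign in 12 genes with ASP + MSG, 5 with ASP and 7 with MSG. The share over all genes is not given here, so these counts cannot be set against it.

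**Figure D5:**
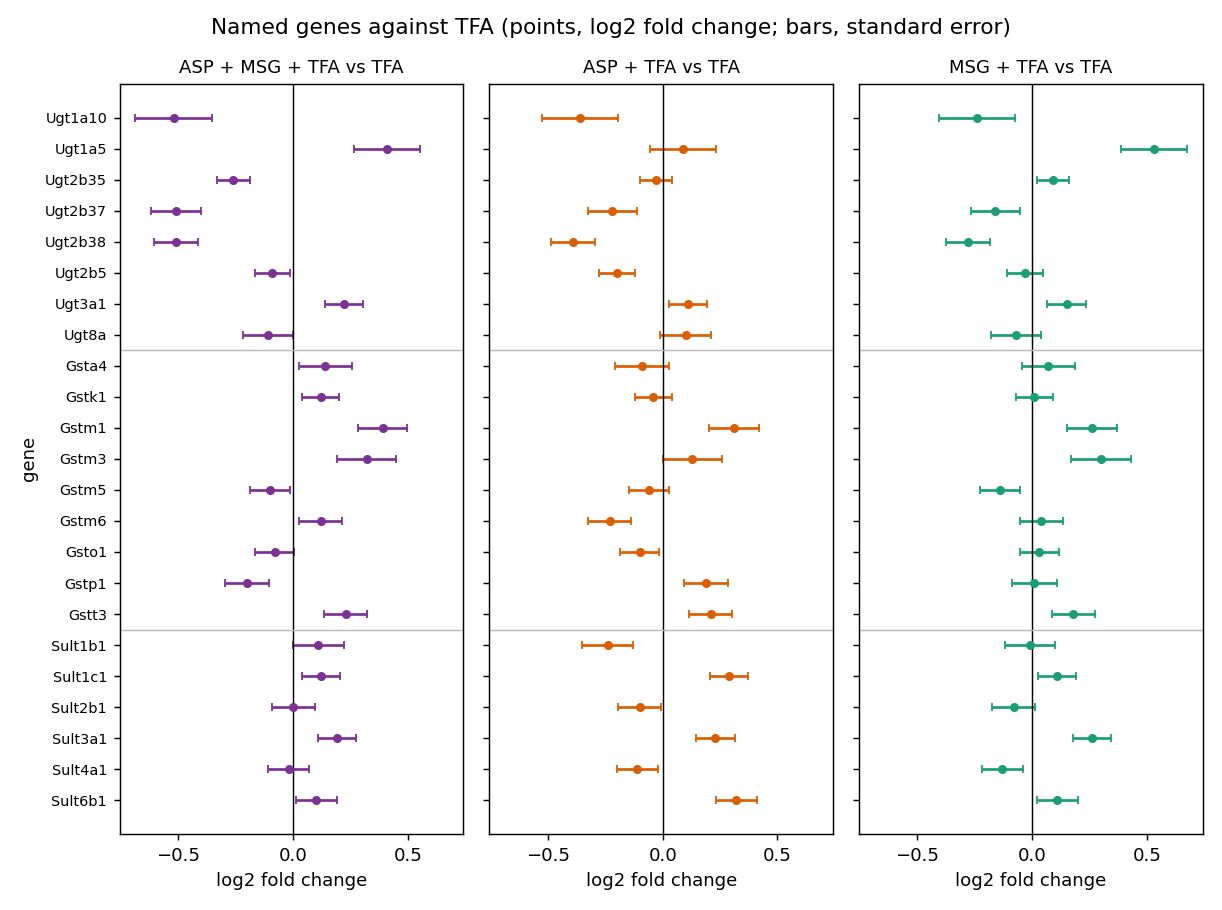
Log2 fold change against TFA (horizontal axis, bars give the standard error) of the 23 genes named by rule, in 3 panels for ASP + MSG + TFA, ASP + TFA and MSG + TFA, with Ugt genes at the top, then Gst and Sult genes. Ugt2b38 is left of 0 in all 3 panels (-0.51, -0.39 and -0.28), Gstm1 is right of 0 in all 3 (0.39, 0.31 and 0.26), and 0 of these genes passed the adjusted test.

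Genes that work with the phase II enzymes were described from lists of conjugation cofactors, other conjugating enzymes, deconjugating enzymes, conjugate transporters, xenobiotic receptors, and targets of CAR and PXR, of AHR and of NRF2. No measured gene of these 8 lists passed an adjusted p under 0.05 in a comparison with TFA. Their median log2 fold changes lay between -0.021 and 0.087 with ASP + MSG, -0.027 and 0.142 with ASP, and 0.007 and 0.115 with MSG. Gclc, the rate-limiting enzyme of glutathione synthesis, averaged 12.51 ± 0.0372 (SD, n = 3) in ASP + MSG + TFA pools, 12.39 ± 0.0800 in ASP + TFA pools, 12.51 ± 0.0681 in MSG + TFA pools and 12.31 ± 0.118 in TFA pools. Abcc3, which exports glucuronides to blood, had log2 fold changes of 0.31, 0.23 and 0.28 with ASP + MSG, ASP and MSG (adjusted p = 0.315, 0.428 and 0.676). Cyp2b9, a cytochrome P450 of the CAR list and also female-predominant, averaged 10.14 ± 0.708 in ASP + MSG + TFA pools and 7.95 ± 0.245 in TFA pools, at 2.20 (adjusted p = 0.104). Alas1, the first enzyme of heme synthesis and a CAR and PXR target, had -0.44 with ASP + MSG (adjusted p = 0.183). Bach1, a repressor of NRF2 targets, had -0.25 (adjusted p = 0.323), and the NRF2 target Hmox1 had -0.33, -0.41 and 0.02 with ASP + MSG, ASP and MSG.

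Because several Ugt2b, Gst and Sult genes differ between the sexes in mouse liver, sex-linked liver genes were listed too. Of 14 male-predominant genes 0 passed. At an unadjusted p under 0.05 7 were lower with ASP + MSG (4.38% of all genes), 0 with ASP (3.47%) and 0 with MSG (3.05%). Their medians were -0.183, 0.058 and -0.140. Of 10 female-predominant genes 0 passed. At the same cut 2 were higher with ASP + MSG (5.68% of all genes), 3 with ASP (6.66%) and 2 with MSG (2.77%). In each comparison 0 were lower. Their medians were 0.042, 0.004 and 0.068. Markers of adipocytes, Kupffer cells, endothelium, cholangiocytes, stellate cells, intestinal epithelium and erythroid cells had 0 genes that passed in any comparison with TFA, as did hepatocyte and acinar markers. The part of sex-linked regulation in the values of the 51 genes was not tested.

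Of the families' other genes, 6 stand in the annotation under older names and were outside the 51: Sult2a3, Sult2a4, Sult2a6, Sult2a8, Sult3a2 and Sult6b2. Sult2a8 averaged 13.20 ± 0.0194 (SD, n = 3) in ASP + MSG + TFA pools, 13.22 ± 0.0966 in ASP + TFA pools, 13.20 ± 0.0677 in MSG + TFA pools and 13.31 ± 0.0641 in TFA pools. Sult2a3 had log2 fold changes of -0.27, -0.30 and -0.18 with ASP + MSG, ASP and MSG (adjusted p = 0.384, 0.301 and 0.890). None of the 6 passed an adjusted p under 0.05. In all, 57 probe sets that match a member and other genes, in 13 sets of symbols, were left out of the gene values. A probe set that matches Sult2a1 together with 3 other symbols had 5.77, 5.81 and 6.00 in ASP + MSG + TFA pools, 5.93, 5.77 and 5.59 in ASP + TFA pools, 5.99, 5.99 and 5.52 in MSG + TFA pools, and 6.76, 6.43 and 6.75 in TFA pools. All 9 additive pools were below TFA, at -0.79 ± 0.139 with ASP + MSG, -0.88 ± 0.139 with ASP and -0.82 ± 0.139 with MSG (limma, unadjusted p = 6.13e-05, 1.82e-05 and 4.20e-05). This probe set was below the array medians in every pool and was picked from the 57 after its values were seen. Another probe set that matches Sult2a1 and other symbols had 0.03, 0.42 and 0.24 in the same comparisons. A further one had 0.47, -0.57 and 0.31, so that the probe sets of this gene did not share a sign. The probe set of Gstm5 and 4933431E20Rik had -0.82 ± 0.222, -0.79 ± 0.222 and -0.76 ± 0.222 (limma, unadjusted p = 0.00253, 0.00325 and 0.00418), while Gstm5's own probe sets gave -0.10, -0.06 and -0.14 (the last -0.01 with the muscle marker mean in the fit, and 0.13 as a median over probe sets).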

How the data were processed

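Liver RNA, pooled from 5 mice per array, was hybridised by the authors to 12 Affymetrix Mouse Gene 1.0 ST arrays (3 per diet). The deposited intensity values were made by the authors in Partek, with GCRMA background adjustment and quantile normalisation, and are on a linear scale from 14.8 to 68604. The genome build of the array annotation is not given in the sources used here. Values were taken to log2 with no pseudocount and no filter on low values. Of 241576 probe sets, 212138 have 1 gene symbol, 4672 several and 24766 none, and the first were averaged to 20422 genes. Array intensities have no read depth.

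All genes entered 1 linear model of the 4 diets in limma 3.58.1 (lmFit and eBayes; R 4.3.3, data.table, version 1.17.8), with an F test, 3 contrasts with TFA, 2 between ASP + MSG + TFA and each single additive, and the interaction. P-values are two-sided and adjusted by the Benjamini-Hochberg method over all genes per contrast, with a threshold of 0.05. Errors are SD over 3 pools or standard errors of the fit. The script was tested on simulated data. Promoters of RefSeq (GRCm38.p6) were searched and aligned in Python 3.11.15 with Biopython 1.88, pandas 2.3.3 and numpy 2.4.6, and figures drawn with matplotlib 3.10.9.

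Genes named were any past the threshold, the 4 of smallest p in each direction against TFA, the 2 of smallest p in each other comparison, the smallest F-test p of each subfamily, and up to 2 genes per list. Ugt1a1, Ugt2a2, Ugt2b1, Ugt2b34, Gstp2, Sult5a1, the genes listed beside counts, the renamed genes and the probe sets shared with other genes were chosen after their values were seen. The members and all gene lists were chosen with earlier results of these data known. Alternatives covered the summary over probe sets, the variance model, array weights, the replicate number, marker covariates and left-out arrays.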

Additional observations from a re-analysis of the deposited data

How the results depend on the processing

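The count of 0 genes past the threshold held in each comparison when any 1 pool was left out (lowest 0, highest 0). The labels do not say whether same-numbered pools belong together. Their 18 correlations of deviations ran from -0.342 to 0.354 (4 over 0.1), a range that cannot decide it. A replicate block left 0 genes in each comparison (Ugt2b38 with ASP + MSG, limma adjusted p = 0.0804). At an unadjusted p under 0.05 the counts were 12 over the 4 diets, 11 with ASP + MSG, 10 with ASP and 5 with MSG against TFA, 11 against ASP + TFA, 6 against MSG + TFA and 8 for the interaction, and 35 probe sets also differed 1.4-fold from TFA. A trended, robust variance called 1 gene, Ugt2b38 with ASP + MSG (limma adjusted p = 0.0482). Array weights, from 0.355 for ASP + TFA pool 3 to 3.33 for ASP + TFA pool 2, called 3 genes over the 4 diets (Ugt2b35, Ugt2b37 and Ugt2b38), 2 with ASP + MSG (Ugt2b37 and Ugt2b38), 4 with ASP (Gstm1, Sult1c1, Ugt2b37 and Ugt2b38) and 2 against ASP + TFA (Gstp1 and Sult1b1), with limma adjusted p between 0.00725 and 0.0490. A plain analysis of variance called 1 gene against MSG + TFA, Ugt2b35. The shares of all genes for the counts at an unadjusted p are given in the Results. For the array weights, the trended, robust variance and the plain analysis of variance, the share of all genes called is not given here. The share of all probe sets that matches the 35 is not given either. Whether these settings call Ugt, Gst and Sult genes more often than other genes therefore cannot be told. Signs turned for 6 values of named genes: with the median over probe sets Ugt2b35 had 0.14 with ASP + MSG and Gstm5 0.13 with MSG, with the brightest probe set Gstm1 had -0.04 and Sult1b1 0.05 with ASP and Ugt2b37 0.12 with MSG, and with the muscle marker mean in the fit Sult4a1 had 0.05 with MSG. The medians here are of intensities on each array, not of fold changes. Of 745 values of named genes under the alternatives, 731 kept their sign and side of the threshold. As 0 of these differences passed in the main fit, a side could change only by passing. Values that shrank count as kept, such as Ugt2b37 with ASP + MSG (-0.51, and -0.03 with the brightest probe set). So do values that grew, such as Sult1c1 with ASP (0.29, and 0.98 with the brightest probe set). The cause of these differences was not tested.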
